A study of Saccharomyces cerevisiae with 4 samples.

Results

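The 39 genes described here handle copper and iron in the budding yeast Saccharomyces cerevisiae. They were listed by name for their known roles in metal uptake, delivery, storage and regulation, and each has 1 of the 6212 rows of the deposited table, which are named by open reading frame. Iron and copper uptake are linked in yeast. Reductases at the cell surface convert both metals to the forms that are imported, and the iron permease works only together with an oxidase that needs copper. Aft1 and Aft2 are the transcription factors that switch on iron uptake genes when iron is scarce, and Mac1 does the same for copper uptake genes. Both metals dissolve poorly in alkaline medium, which makes these genes of interest after alkalinisation.

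Total RNA was compared on 4 spotted arrays with 2 dyes, 2 arrays for each comparison, with the dyes exchanged between the arrays of a comparison. The cells were of a strain labelled DBY4741, grown in YPD rich glucose medium at 28 °C. The first comparison set untreated reg1::KanMX cells, in which a KanMX cassette takes the place of the REG1 gene (here reg1), against untreated wild-type cells. The second set reg1::KanMX cells given 16 mM KOH for 10 min, to about pH 8, against reg1::KanMX cells given 16 mM KCl for the same time, from medium at about pH 5.5, so both of its groups lack Reg1. Reg1 targets the phosphatase Glc7 in glucose repression. Alkali was applied to the mutant alone on these arrays, and wild-type cells under alkali were not analysed here. Whether experiments 1 and 2 used separate cultures is not given in the labels, so p-values measure the spread between these arrays, which may be technical.

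Between 4746 and 5190 rows had a value on an array. Over all rows the mutant arrays correlated at r = 0.594 and the alkali arrays at r = 0.954. The deleted gene, REG1, had log2 ratios of -1.10 and -0.96 in the mutant comparison (adjusted p = 0.0313, limma). This sets that direction as reg1 over wild type. A deleted gene thus read only 2.04-fold lower, so folds on these arrays need not equal the RNA ratios in the cells. For alkali, KOH over KCl is taken as the likely direction. Its basis is the sample titles and ENA1, a sodium pump gene known to be induced by alkali, which stood at 7.40 on both arrays. A value of 1 on the log2 scale is a 2-fold ratio, where the log base, which no source states, was taken as 2.

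The names in the mutant columns are displaced over part of the table, and this touches 27 of the 39 genes. Spots without a value tend to be the same on every array, so the number of mutant arrays and of alkali arrays with a value should go together along the table. They did at the names in rows YBR048W to YKL010C (r = 0.706), where 12 of the genes lie. In rows YKL011C to YPR204W that correlation was 0.042 at the names and 0.753 with the mutant columns read 2 rows further down. Within 50 rows on each side of each of the 27 genes, 2 rows down gave the highest correlation of the 9 displacements tried in 27 of 27 cases, with r between 0.56 and 0.851. Cytosolic ribosomal protein genes gave a second check of which columns to move. In the undisplaced rows their mutant median was -0.55. In the displaced rows it was -0.17 at the names and -0.55 after the move, and their alkali median was -1.67 without any move. Mutant values of the 27 genes were therefore read 2 rows down, and each such gene is marked as realigned. No gene of the list lies within 161 rows of a place where the register changes, and 199 rows with an unresolved register, YAL067C to YBR047W, hold none of them.

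**Figure D1:**
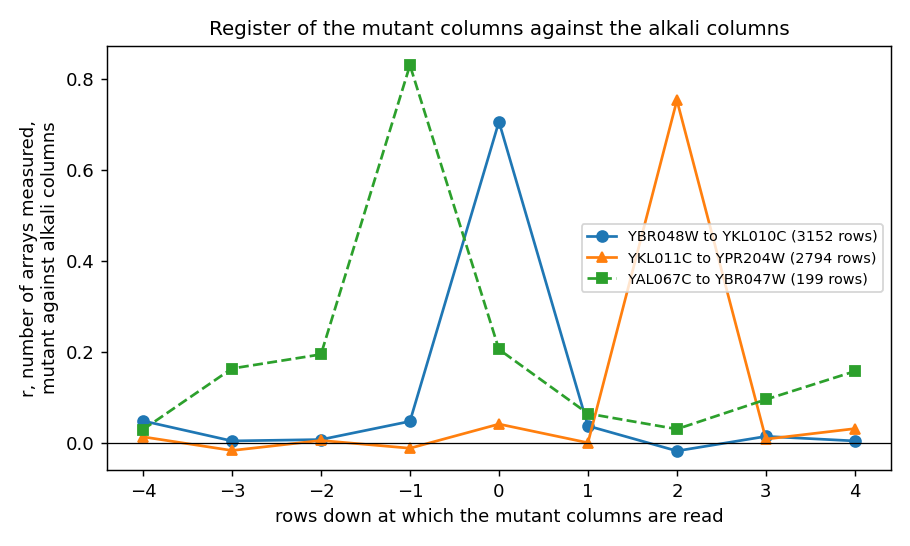
Correlation between the number of mutant arrays and the number of alkali arrays that measured a row (y axis), with the mutant columns read between 4 rows above and 4 rows below their names (x axis), for 3 parts of the table. The peak stands at 0 rows for YBR048W to YKL010C (r = 0.706) and at 2 rows down for YKL011C to YPR204W (r = 0.753).

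In untreated reg1 cells all 3 FIT genes were higher than in wild-type cells, by 2.08-fold to 3.89-fold. They encode cell wall mannoproteins that hold siderophores, iron chelators made by microbes, near the cell. Also higher were SIT1, 1 of 3 measured siderophore transporter genes, the reductase gene FRE7 and the vacuolar copper transporter gene CTR2, by 1.92-fold, 3.51-fold and 2.00-fold. The genes of the main uptake system for iron as a free ion, FET3 and FTR1, did not pass the test, at 0.35 and 0.03 on the log2 scale.

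Of the 39 genes, 31 were measured on both mutant arrays, 2 on 1 array and 6 on none. Of the 31, 6 were called higher (19.4%) and 0 lower by limma (adjusted p under 0.05), and at an unadjusted p under 0.05 these counts were 8 and 0. Over all 4765 rows tested, 7.16% were called, 5.2% higher and 1.95% lower. Unadjusted, 583 of these rows were higher and 608 lower. The median log2 ratio was 0.20 over the 31 genes and -0.05 over all rows. With 2-fold or more in 1 direction on both arrays as the rule and no model, 3 of the 31 were higher (FRE7, FIT2 and FIT3) and 0 lower, against 2.9% and 0.714% of all rows. When only the mutant arrays set the spread, 2 genes were called, FRE7 and FIT3, and the same 2 were called without experiment 1. These 6.45% of the 31 genes stood beside 3.21% and 5.04% of all rows in those fits, and without experiment 2 the share was 12.9% beside 4.32%. Among the 12 genes that needed no realignment 3 were called (25.0%), CTR2, SIT1 and FIT1. A fit of the rows that need no move alone also called 3 of the 12, beside 8.44% of those rows.

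**Figure D2:**
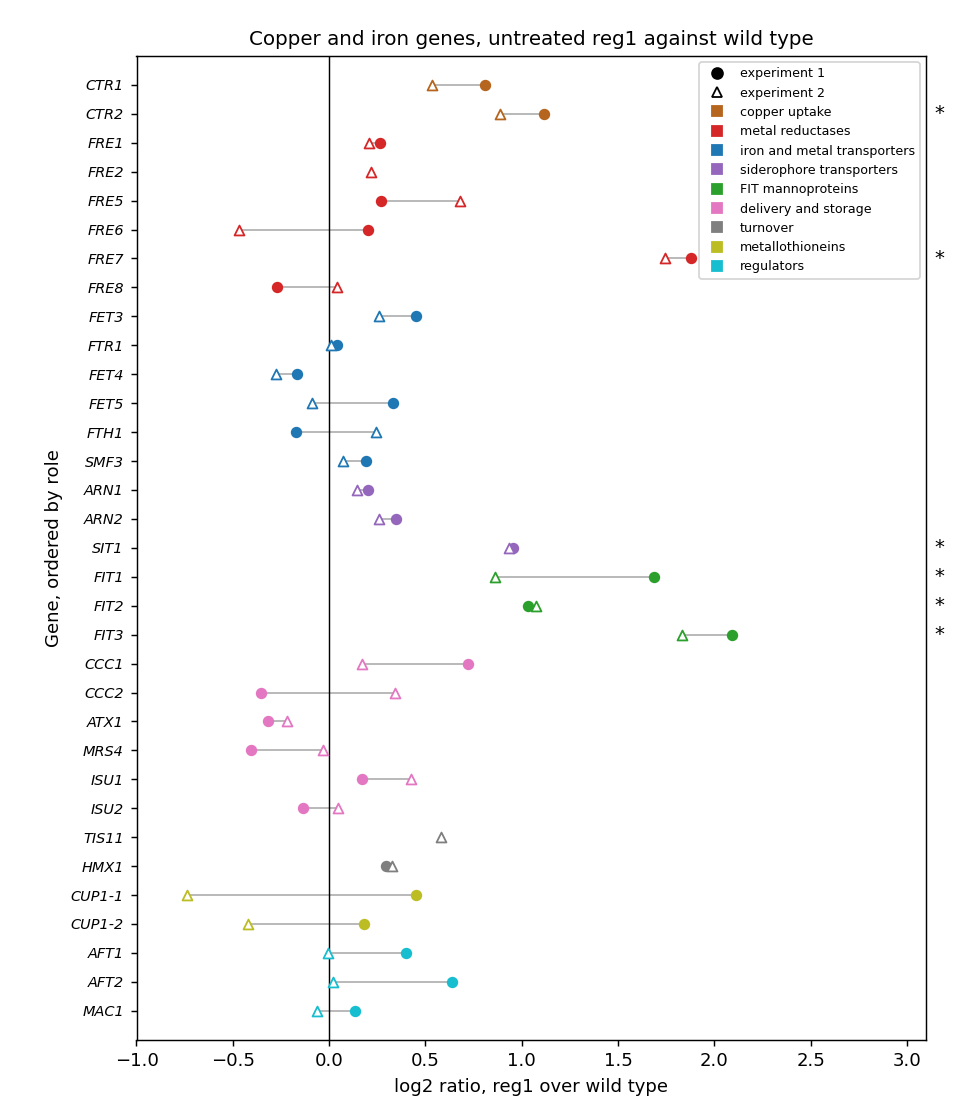
The log2 ratio of reg1 over wild type (x axis) for each copper and iron gene with a value (y axis, ordered and coloured by role), with experiment 1 as filled circles and experiment 2 as open triangles. Asterisks mark the 6 genes called by limma, whose values all lie at 0.86 or more on both arrays.

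FIT3 was the highest of the genes in the mutant, with log2 ratios of 2.09 and 1.83 (realigned), a mean of 1.96 ± 0.18 (SD, n = 2; adjusted p = 0.0038, limma). It ranked 41 from the top of all 4765 rows and was called under every alternative in which it could be fitted. FIT2 had 1.03 and 1.08 (realigned), a mean of 1.05 ± 0.03 (adjusted p = 0.0166, limma), and it was not called when either mutant array was left out. FIT1, which lies in undisplaced rows, had 1.69 and 0.86, with the widest gap of the called genes, and its mean of 1.27 ± 0.58 passed (adjusted p = 0.030, limma). It was not called without experiment 1. FIT2 and FIT3 occupy neighbouring rows between the reductase genes FRE3 and FRE5, and their mutant values depend on the realignment, like those of all 27 displaced genes. Read at their names, FIT2 would have -0.02 and -0.71, and FIT3 no value.

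The 4 siderophore transporter genes each serve particular siderophores. SIT1, for ferrioxamine-type siderophores, had 0.95 and 0.94 at its name, a mean of 0.94 ± 0.01 (adjusted p = 0.0277, limma), the smallest spread of the called genes. Without either mutant array it was not called. ARN2 had 0.35 and 0.26 and ARN1 0.20 and 0.14, so all 3 measured transporters were above 0 on both arrays, and the last pair did not pass the test. The 95% intervals of the mean were -0.05 to 0.65 for ARN2 and -0.21 to 0.55 for ARN1. ENB1, the enterobactin transporter gene, had no value on any array once realigned.

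Of the metal reductase genes, FRE7 stood apart in the mutant. It encodes a member of the ferric reductase family whose expression is known to follow copper supply through Mac1. Its log2 ratios were 1.88 and 1.75 (realigned), a mean of 1.81 ± 0.10 (adjusted p = 0.00764, limma), and it ranked 48 from the top of all rows. FRE1, the main surface reductase gene and a Mac1 target as well, had 0.27 and 0.21 (realigned; adjusted p = 0.358, limma). FRE5, which encodes a putative reductase, had 0.27 and 0.68 (realigned; adjusted p = 0.156, limma). The vacuolar reductase gene FRE6 had 0.20 and -0.47 and FRE8 had -0.27 and 0.04 (both realigned), so their arrays lay on both sides of 0. FRE2, a second surface reductase gene, was measured on experiment 2 alone, at 0.22. FRE3 and FRE4, for iron bound to siderophores, had no value.

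Of the 2 measured copper transporter genes 1, CTR2, rose in the mutant. CTR2, which moves copper out of the vacuole, had 1.11 and 0.89 at its name, a mean of 1.00 ± 0.16 (adjusted p = 0.0201, limma), and was not called without experiment 1. CTR1, the high-affinity copper transporter gene of the plasma membrane, had 0.81 and 0.53 (realigned), a mean of 0.67 ± 0.20 that missed the threshold (adjusted p = 0.0624, limma, 95% interval 0.29 to 1.05). It passed with the arrays centred on their medians, scaled to the same spread or fitted with a dye term. CTR3, the other high-affinity copper transporter gene, had no value on any array once realigned.

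Of the 6 measured transporter genes for free iron and other metals, 0 passed in the mutant by limma, beside 7.16% of all rows. A count of 0 in so few genes lies near that share. At an unadjusted p under 0.05 the count was also 0. FET3, the multicopper oxidase gene, had 0.45 and 0.26 (realigned; adjusted p = 0.211, limma, 95% interval -0.01 to 0.72), and FTR1, its permease partner, 0.04 and 0.01 at its name (95% interval -0.34 to 0.39). These intervals leave room for a rise of FET3 of up to 0.72 on the log2 scale and of FTR1 of up to 0.39. The low-affinity transporter gene FET4 had -0.17 and -0.27, and SMF3, for export of iron from the vacuole, 0.19 and 0.07 (both realigned). FET5 and FTH1, the vacuolar counterparts of FET3 and FTR1, had opposite signs on their arrays, 0.33 and -0.09 for FET5 and -0.17 and 0.24 for FTH1. SMF1, a manganese transporter gene, had no mutant value once realigned.

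The genes for delivery and storage lay between -0.27 and 0.45 in the mutant. Of the 6, 0 passed by limma, beside 7.16% of all rows (0 at an unadjusted p under 0.05). ATX1, for the copper chaperone of the cytosol, had -0.32 and -0.22 (realigned), and CCC2, for the Golgi copper pump that Atx1 supplies, -0.36 and 0.34. The vacuolar iron importer gene CCC1 had 0.72 and 0.17 and the mitochondrial iron carrier gene MRS4 -0.41 and -0.03 (both realigned). ISU1 and ISU2, for the paired scaffold proteins on which mitochondrial iron-sulfur clusters form, had means of 0.30 ± 0.18 and -0.05 ± 0.13 (realigned, n = 2). Among turnover genes, HMX1, for heme oxygenase, had 0.29 and 0.33 (realigned; adjusted p = 0.252, limma). TIS11, whose protein promotes decay of mRNAs for iron-using proteins when iron is scarce, had 0.58 on experiment 2 alone.

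The regulator genes and the metallothionein genes did not pass in the mutant either. AFT1 had 0.40 and -0.004, AFT2 0.64 and 0.02 (realigned) and MAC1 0.13 and -0.06 (realigned), so experiment 1 gave the higher value for each. The copper-binding metallothionein genes CUP1-1 and CUP1-2 had 0.45 and -0.74, and 0.18 and -0.42. Their signs turned with the experiment, and thus with the dye, and their spots cannot be told apart because the genes are copies of each other. CRS5, the other metallothionein gene, had no value on any array once realigned. In all, 10 of the 31 genes had opposite signs on the mutant arrays.

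After 10 min in KOH, reg1 cells had less RNA of the main iron uptake pair and of the copper chaperone, and more of several other metal genes. ATX1 fell 5.92-fold. FTR1 and FET3 fell 1.99-fold and 1.79-fold, together with CTR1, FRE1, FET4, FIT2 and ISU2. Falls of this size were common in the table. Of all rows tested, 15.8% lay below FTR1, the lowest of this set, and 32.5% below ISU2, the highest, against 1.11% below ATX1. FRE5 rose 3.84-fold, ISU1 2.55-fold and MRS4 2.23-fold, and the regulator gene AFT1 rose 1.82-fold.

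Of the 39 genes, 30 were measured on both alkali arrays, 1 on 1 array and 8 on none. By limma's test 12 of the 30 were higher and 8 lower, 66.7% in all. Over all 4584 rows 61.8% were called, 29.1% higher and 32.7% lower, so the share called among these genes lay near that of the table in this fit. Their median log2 ratio was 0.30, against -0.09 over all rows. By the 2-fold rule 2 were higher, FRE5 and ISU1, and 1 lower, ATX1, against 14.9% higher and 13.4% lower of all rows. Those 3 genes were called under every alternative. Most other calls rested on both arrays and on the common scale: 4 genes were called without experiment 1, 4 without experiment 2, and 4 once the arrays were scaled to an equal spread, as 2 higher and 2 lower. That is 13.3% of the 30 genes in each, beside 26.8%, 32.1% and 27.0% of all rows in these fits. The fourth gene was MRS4 without experiment 1, and FTR1 in the other fits.

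**Figure D3:**
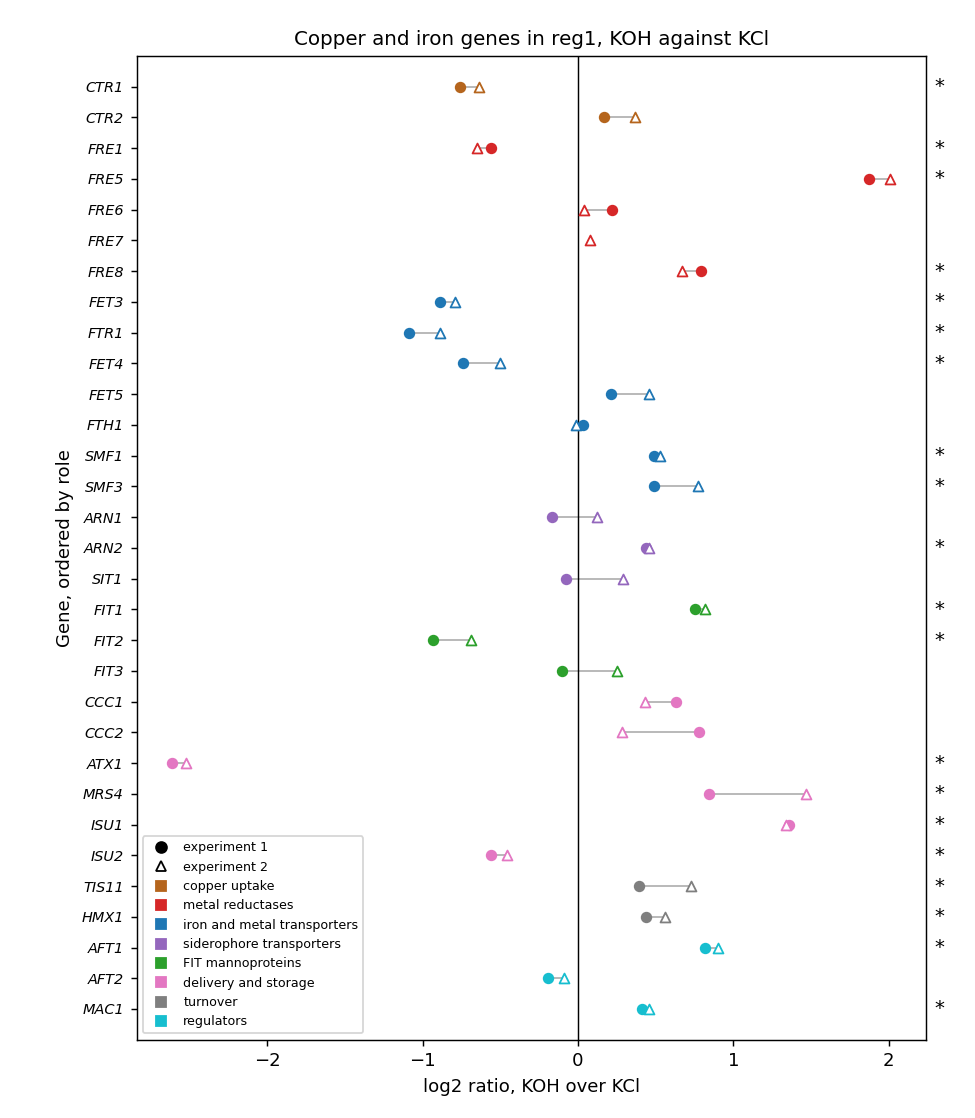
The log2 ratio of KOH over KCl in reg1 cells (x axis) for each copper and iron gene with a value (y axis, ordered and coloured by role), with experiment 1 as filled circles and experiment 2 as open triangles. Asterisks mark the 20 genes called by limma; ATX1 lies at -2.52 or lower on both arrays and FRE5 at 1.87 or higher.

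Of the copper uptake and delivery genes, ATX1 and CTR1 fell under alkali, and CTR2 and CCC2 did not pass. ATX1 had log2 ratios of -2.61 and -2.52, a mean of -2.57 ± 0.06 (SD, n = 2; adjusted p = 1.85e-04, limma), rank 52 from the bottom of all 4584 rows. CTR1 had -0.76 and -0.64, a mean of -0.70 ± 0.08 (adjusted p = 0.0105, limma). CCC2, the pump that receives copper from Atx1, had 0.78 and 0.28, on the other side of 0 from ATX1 on both arrays, and missed the threshold (adjusted p = 0.0896, limma). CTR2 had 0.17 and 0.37 (adjusted p = 0.176, limma). The metallothionein genes and CTR3 had no value on the alkali arrays.

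The reductase genes divided. FRE5 had 1.87 and 2.01, a mean of 1.94 ± 0.10 (adjusted p = 5.03e-04, limma), the highest of the 30 genes. FRE8 had 0.79 and 0.67 and rose as well (adjusted p = 0.00966, limma). FRE1 had -0.56 and -0.65 and fell (adjusted p = 0.0132, limma). FRE6 had 0.22 and 0.04 and did not pass, with a 95% interval from -0.37 to 0.63. FRE7, the highest reductase gene in the mutant comparison, was measured on experiment 2 alone, at 0.08.

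The iron transporter genes of the plasma membrane, FTR1, FET3 and FET4, fell, and SMF1 and SMF3 rose. FTR1 had -1.09 and -0.89, a mean of -0.99 ± 0.14 (adjusted p = 0.00255, limma), and FET3 had -0.89 and -0.79, a mean of -0.84 ± 0.07 (adjusted p = 0.00476, limma). These partners, which work as one complex, thus fell on both arrays by similar amounts. FET4 had -0.74 and -0.50 and fell with them (adjusted p = 0.015, limma). SMF3 had 0.49 and 0.77 and SMF1 0.49 and 0.53, and both rose (adjusted p = 0.0153 and 0.0398, limma). The SMF1 call was lost with a replicate block (adjusted p = 0.0511, limma). FET5, at 0.21 and 0.46, and FTH1, at 0.03 and -0.01, did not pass, and the 95% interval for FTH1 ran from -0.40 to 0.42.

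The FIT genes, all higher in untreated mutant cells, did not move together under alkali. FIT1 had 0.75 and 0.82 and rose (adjusted p = 0.0254, limma). FIT2 had -0.93 and -0.69 and fell (adjusted p = 0.00568, limma). FIT3 had -0.10 and 0.25 and did not pass, with a 95% interval of -0.34 to 0.49. Of the siderophore transporter genes ARN2 rose, with 0.44 and 0.46 (adjusted p = 0.0353, limma), a call lost with a dye term or a replicate block. ARN1, at -0.17 and 0.12, and SIT1, at -0.08 and 0.29, had opposite signs on their arrays.

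Of the 6 delivery and storage genes 2 rose and 2 fell under alkali, a share of 66.7% that lay near the 61.8% of all rows. ISU1 had 1.36 and 1.34, a mean of 1.35 ± 0.01 (adjusted p = 9.82e-04, limma), while its paralog ISU2 had -0.56 and -0.46, a mean of -0.51 ± 0.07 (adjusted p = 0.0266, limma). The scaffold genes thus lay on opposite sides of 0 on both arrays. MRS4 had 0.84 and 1.47 and rose (mean 1.16 ± 0.45, adjusted p = 0.00526, limma), with the largest spread of the 30 genes. CCC1 had 0.63 and 0.43 and stood at the threshold (adjusted p = 0.0505, limma).

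Both turnover genes and both AFT1 and MAC1 rose under alkali. TIS11 had 0.39 and 0.73 (adjusted p = 0.0422, limma) and HMX1 0.44 and 0.56 (adjusted p = 0.0257, limma). AFT1 had 0.82 and 0.90, a mean of 0.86 ± 0.06 (adjusted p = 0.00651, limma), and MAC1 0.41 and 0.46 (adjusted p = 0.0437, limma). The MAC1 call was lost with a dye term or a replicate block. AFT2 had -0.19 and -0.09 and did not pass (95% interval -0.61 to 0.33).

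Set side by side, the comparisons gave different orders of the same genes. Of the 28 genes measured on all 4 arrays, 14 had means above 0 in both comparisons, 3 below 0 in both, 7 above 0 in the mutant and below 0 under alkali, and 4 the reverse. Across these genes the means correlated at r = 0.108 and rho = 0.066, as a description over genes that share arrays and are not independent. The 2 genes called in both comparisons were FIT1, higher in each, and FIT2, higher in the mutant at 1.05 and lower under alkali at -0.81. FIT3, at 1.96 in the mutant, was at 0.07 under alkali. ATX1, at -2.57 under alkali, was at -0.27 in the mutant (95% interval -0.62 to 0.09).

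**Figure D4:**
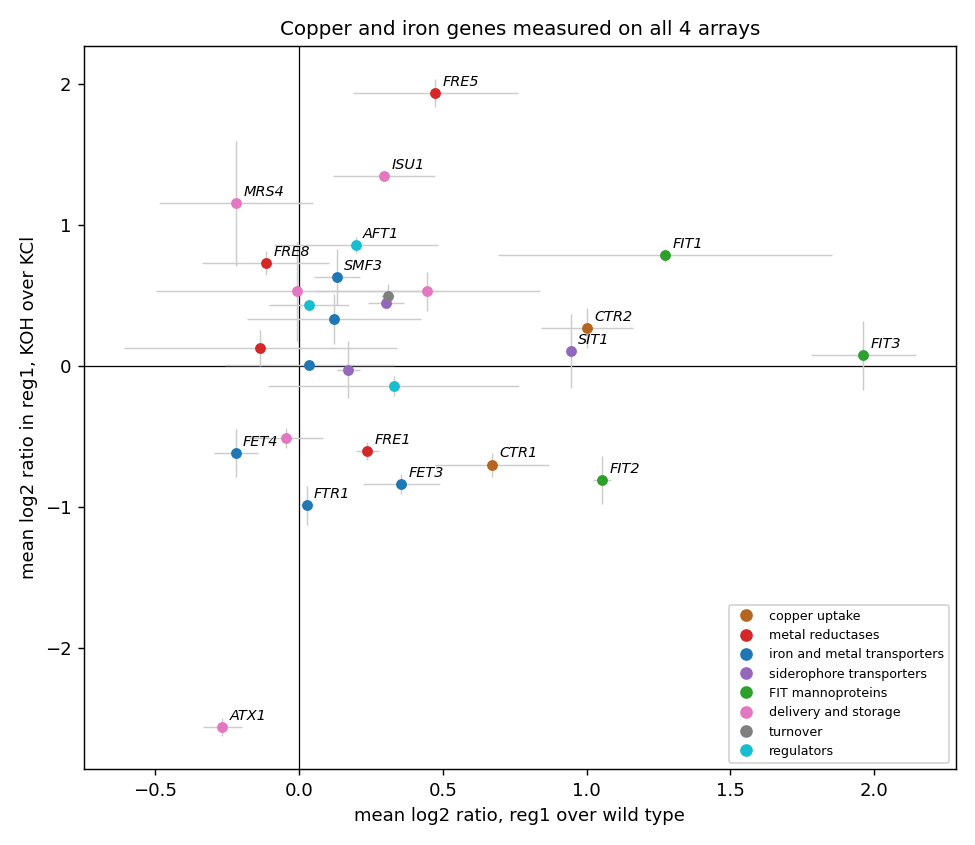
Mean log2 ratio of reg1 over wild type (x axis) against mean log2 ratio of KOH over KCl in reg1 (y axis) for the 28 copper and iron genes measured on all 4 arrays, coloured by role, with bars of 1 SD (n = 2 arrays). SIT1, CTR2, FIT3, FIT1 and FIT2 lie to the right, with FIT1 at 0.79 and FIT2 at -0.81 on the y axis, and FRE5 and ATX1 lie at the top and the bottom with mutant means of 0.47 and -0.27.

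Other genes of metal metabolism were grouped in 7 lists around the 39. The lists leave out the 39 themselves. COT1 stands both in the list of Aft1 and Aft2 genes and in that of zinc and manganese genes. Its rise under alkali (0.39 and 0.44, adjusted p = 0.0449, limma) is counted in both. Of the 30 among the 39 that were measured on both alkali arrays, 12 rose and 8 fell, FTR1, FET3 and FIT2 among the latter. Of 10 other measured genes known to be bound or controlled by Aft1 and Aft2, 7 rose and 0 fell under alkali by limma. At an unadjusted p under 0.05 these counts were again 7 and 0. Over all rows, 29.1% were called higher and 32.7% lower. Unadjusted, 1411 of 4584 rows were higher and 1624 lower. All 10 listed genes had means above 0, with a median of 0.74, and fewer were called when either alkali array was left out. With the arrays scaled to an equal spread 3 of the 10 rose and 0 fell, beside 27.0% of all rows called in either direction. PCL5, for a cyclin of the kinase Pho85, had 1.31 and 1.35 (adjusted p = 0.00151, limma), the zinc-finger protein gene LEE1 1.11 and 1.37 (adjusted p = 0.0018), and VHT1, for the biotin transporter, 0.97 and 1.15 (adjusted p = 0.00201). In the mutant, where 5.2% of all rows were called higher and 1.95% lower, 2 of these 10 rose and 1 fell. They were PRY1, for a secreted sterol-binding protein, at 1.51 and 1.75, ECM4, for a glutathione transferase, at 1.48 and 1.77 (realigned), and BIO5, for a biotin precursor transporter, at -1.21 and -0.70 (realigned; adjusted p = 0.0113, 0.00513 and 0.0466, limma). PRY1 and BIO5 were not called without experiment 1 or without experiment 2, and the list then had 2 higher and 1 higher, with 0 lower in each.

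Genes that build or use iron cofactors are set beside the 7.16% of all rows called in the mutant. Of 19 iron-sulfur cluster assembly genes 0 were called there by limma (1 at an unadjusted p under 0.05), with a median of -0.19, and of 8 heme synthesis genes 0 (0 unadjusted), with a median of -0.22. Of 10 genes for iron-sulfur and heme enzymes 1 rose, ACO1, for aconitase of the citric acid cycle, at 0.77 and 0.87 (realigned; adjusted p = 0.0308, limma). Without either mutant array it was not called. Under alkali 2 of 18 assembly genes rose and 6 fell (44.4%, beside 61.8% of all rows), against 1 and 0 without experiment 1, and 2 and 1 without experiment 2. MET18, for cytosolic cluster assembly, had 1.40 and 1.22, while YAH1, for mitochondrial ferredoxin, had -1.32 and -1.02 and MGE1, a partner of mitochondrial Hsp70, -0.96 and -1.15 (adjusted p = 9.80e-04, 0.00199 and 0.00854, limma).

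Among heme synthesis genes under alkali 2 of 8 (25.0%, beside 32.7% of all rows) fell, HEM4 (-1.07 and -0.84) and HEM13 (-0.86 and -0.68), and 0 rose (adjusted p = 0.00929 and 0.0148, limma, and 0 risers at an unadjusted p under 0.05). Neither was called without either alkali array. Of 10 iron-sulfur and heme enzyme genes 2 rose and 3 fell (50.0%, beside 61.8% of all rows), against 0 and 1 without experiment 1, and 1 and 1 without experiment 2. The homoaconitase gene LYS4 had -1.17 and -1.53 and the biotin synthase gene BIO2 -0.74 and -0.76 (adjusted p = 0.00144 and 0.00863, limma). CYC7, for an isoform of cytochrome c, had 1.66 and 0.72 (adjusted p = 0.0163, limma), and its arrays differed most of those named in these lists.

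The genes of iron sensing did not pass in the mutant by limma (0 of 8, beside 7.16% of all rows). At an unadjusted p under 0.05 the count was 1. Under alkali 2 rose and 3 fell, 62.5% beside 61.8% of all rows, and without either alkali array 1 was called, as higher. MSN5, for the exportin that carries Aft1 out of the nucleus, had 2.23 and 2.04 (adjusted p = 3.15e-04, limma). FRA1 and FRA2, whose proteins relay the iron signal to Aft1 together, had 0.84 and 0.64, and -0.99 and -1.0 (adjusted p = 0.0368 and 0.0117, limma), on opposite sides of 0.

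Of the further copper genes 4 were measured on both mutant arrays and 0 called by limma, beside 7.16% of all rows. At an unadjusted p under 0.05, 2 were higher and 1 lower, beside 583 and 608 of all 4765 rows. Under alkali 1 of 6 rose and 2 fell (50.0%, beside 61.8% of all rows), and 0 were called without either alkali array. PIC2, for a mitochondrial carrier of copper and phosphate, had 0.99 and 0.81, the copper-zinc superoxide dismutase gene SOD1 -0.83 and -0.77, and SLF1, an RNA-binding protein gene linked to copper, -0.67 and -1.02 (adjusted p = 0.0049, 0.00492 and 0.00756, limma).

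Zinc and manganese genes had 2 of 15 higher (13.3%) and 0 lower in the mutant, beside 5.2% and 1.95% of all rows. IZH3, for a membrane protein linked to zinc, had 1.74 and 1.25 (realigned) and ZRT1, the high-affinity zinc transporter gene, 1.30 and 0.98 (adjusted p = 0.0086 and 0.0279, limma). ZRT1 was not called without experiment 1 or without experiment 2. Under alkali 4 of 15 rose and 3 fell (46.7%, beside 61.8% of all rows), against 2 and 0 without experiment 1, and 1 and 0 without experiment 2. PMR1, for the Golgi pump of calcium and manganese, had 2.59 and 2.74 (adjusted p = 1.81e-04, limma), SMF2, for intracellular manganese transport, 0.90 and 1.23, and IZH3 0.82 and 0.94 (adjusted p = 0.00484 and 0.00737, limma).

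**Figure D5:**
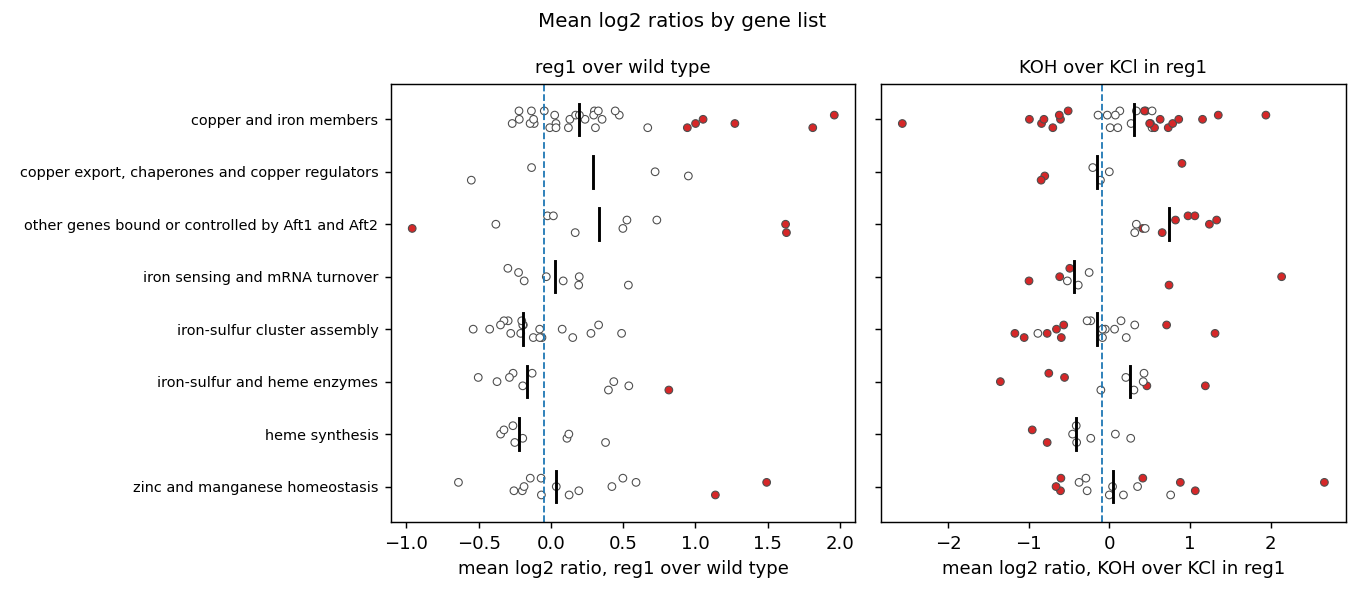
Mean log2 ratio per gene (x axis, n = 2 arrays) for the copper and iron genes and 7 further lists (y axis), reg1 over wild type on the left and KOH over KCl in reg1 on the right. Filled points were called by limma, black bars are list medians and dashed lines the median of all rows (-0.05 and -0.09). The list of other Aft1 and Aft2 genes, which leaves out the copper and iron genes, has a median of 0.74 under alkali.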

How the data were processed

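The authors deposited 1 table of log ratios, taken here as log2, with a column per array. Per the labels, spots under 120 µm across or under 100 units in both dyes were left out. How the arrays were scanned, background-corrected and normalized is not stated there. The arrays of each comparison correlated positively despite the exchanged dyes, so no sign was turned, and values were not centred (column medians -0.028, -0.068, -0.120 and -0.040). Of 6212 rows, 5662 matched a symbol by locus tag in a RefSeq table of S288C. The table names no build, so no coordinates are given.

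In rows YKL011C to YPR204W (2794 rows) mutant values were read 2 rows down, and 199 rows were left out of both comparisons. Group means were tested against 0 with limma (3.58.1, R 4.3.3) lmFit and eBayes over all 4 arrays, on rows with both values of the comparison, two-sided, with Benjamini-Hochberg adjustment over all of them and calls under 0.05. The fit was tested on simulated data. SDs are over 2 arrays, whose number limits precision, and the signal of single spots is unknown. Named genes were all listed genes, REG1, and up to 3 called genes of largest absolute mean from each further list. ENA1 was added after its values were seen, and COT1 is named only because it is shared by lists. The genes, lists, reading of the rows and tests were chosen with earlier results of these data known. Alternatives changed the spread, centring, scaling, dye term, replicate block, rows and arrays used.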

Additional observations from a re-analysis of the deposited data

How the results depend on the processing

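In the mutant comparison 6 of the copper and iron genes were called. The count was 2 with the spread from the mutant arrays alone and 3 at 2-fold on both arrays. Over rows whose names need no move, which test 12 of the genes, the count was 3 beside 8.44% of those rows. Leaving out 1 array gave between 2 and 4. The count was 7 with centring, scaling or a dye term, 6 with a replicate block, and 5 over rows measured on all 4 arrays. The share of all rows called also changed, from 7.16% to 7.18%, 12.6% and 16.8% with centring, scaling and a dye term. In each of those fits 22.6% of the 31 genes were called. With a replicate block the shares were 19.4% of the genes and 8.81% of all rows. Over rows on all 4 arrays they were 17.9% and 7.32%. As deposited the count was 5, of which FRE5 (1.05) and ENB1 (-0.85) carry values that the realigned table gives to other rows. In that reading FRE7 had -0.31 and FIT2 -0.36, reversed by construction since other rows are read. FIT3 was called in every alternative that could test it.

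In the alkali comparison 20 were called. The count was 4 with arrays scaled to the same spread, between 4 and 4 with 1 array left out, and 3 at 2-fold on both arrays. The share of all rows called also fell in these fits, from 61.8% to 27.0% with scaling and to 26.8% and 32.1% with 1 array left out. The count was 18 with a replicate block, 20 with a dye term, and between 18 and 22 in the other fits. No call changed sign in the alkali comparison under any alternative. Experiments of the same number did not deviate together (r = -0.092 over 4315 rows). This value cannot decide whether the number pairs the arrays. Arrays of the same number had opposite dyes, so a dye bias could offset a shared deviation. A lone array left in a comparison was assumed to vary like the other arrays.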
